A study of Homo sapiens with 6 samples.

Results

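Of the 58735 genes in the count table, 9 mucin genes and SPDEF were followed in A549 cells that overexpressed IL17D. The mucins were MUC5AC, MUC5B, MUC2, MUC1, MUC3A, MUC4, MUC13, MUC16 and MUC20, and each of the 10 genes was found by its name. The 10 genes were chosen by name with the read counts of this comparison in view, in which MUC5AC and MUC5B were lower in the IL17D-overexpressing libraries, so the differences of all 10 between the groups are given as descriptions, and no p-value is printed for them. A549 is a human lung carcinoma line of epithelial origin. Control cells carried a lentiviral empty vector, and IL17D-overexpressing cells carried the same kind of vector with the IL17D reading frame, amplified from cDNA of another lung cancer line. According to the methods, the vector drove its insert from a human PGK promoter and also encoded GFP. Both groups were grown in RPMI1640 with 10% FBS, and total RNA was sequenced from 3 libraries of each group. Neither the methods nor the labels say whether a group was 1 clone or a pool of transduced cells, or whether its libraries came from separate cultures. The p-values below therefore measure the spread between these libraries, which may be technical.

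Mucins are large glycoproteins whose tandem repeats, rich in serine, threonine and proline, carry dense O-linked sugar chains. MUC5AC, MUC5B and MUC2 are secreted and form the mucus gel, with MUC5AC and MUC5B as the main gel-formers of the airways and MUC2 as that of the intestine. MUC1, MUC3A, MUC4, MUC13 and MUC16 span the cell membrane and cover the apical surface of epithelia, and MUC20 is usually counted with them. SPDEF is an ETS-family transcription factor known to drive goblet cell differentiation in the airway.

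IL17D itself checked the labels. Its counts were 24, 18 and 34 in the control libraries and 31274, 32155 and 26772 in the IL17D-overexpressing libraries. The library totals ran from 14319398 to 16521021 counts, at which depth a limit of 3 counts corresponded to 0.182 to 0.210 CPM (the count of a gene scaled to a library of fixed size). The epithelial keratins KRT8 and KRT18 were abundant in every library. KRT8 was at a mean of 7648 CPM in control and 7357 CPM in IL17D-overexpressing cells, and KRT18 at 3591 and 3556 CPM. EPCAM, CDH1 and the keratin KRT19 made up little of the summed level of the 5 epithelial markers, of which 4 had enough counts to be tested. Of 8 markers of alveolar type II cells, the cell type A549 is often used to model, 2 had enough counts to be tested, ABCA3 and NAPSA, and SFTPA2 had no count in any library. The leukocyte markers PTPRC and CD3E and the endothelial marker KDR also had no count.

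The coding repeats of 3 mucins are shown because such repeats define a mucin, and because reads are counted on them. The sequences are from GENCODE release 29 transcripts, 5′ to 3′ on the coding strand, and capitals mark bases that differ from the base 1 repeat unit earlier. The MUC5B stretch is at chr11:1249899-1250072 (GRCh38, plus strand) in exon 31 of 49, as 2 units of 87 bases. MUC3A is shown at chr7:100957465-100957668 (plus strand) in exon 2 of 12, as 4 units of 51 bases, and MUC13 at chr3:124927740-124927869 (minus strand) in exon 2 of 12, with units of 48 bases.
MUC5B: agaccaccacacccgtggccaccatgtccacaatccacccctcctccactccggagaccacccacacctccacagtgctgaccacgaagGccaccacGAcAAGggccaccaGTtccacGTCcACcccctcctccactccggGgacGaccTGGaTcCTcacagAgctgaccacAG
MUC3A: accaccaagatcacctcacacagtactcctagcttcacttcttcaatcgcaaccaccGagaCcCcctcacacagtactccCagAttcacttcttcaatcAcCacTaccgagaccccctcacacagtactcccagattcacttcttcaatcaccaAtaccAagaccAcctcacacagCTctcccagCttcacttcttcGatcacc
MUC13: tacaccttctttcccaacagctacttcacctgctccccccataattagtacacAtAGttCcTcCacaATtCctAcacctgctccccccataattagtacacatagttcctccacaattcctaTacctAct
The MUC13 run printed here, 130 bases long, is the whole run that was found, whereas in MUC3A the run of 51-base units extended over 1657 bases. Across the coding sequence, the share of 31-base stretches that occurred more than once within the same gene was 31.8% for MUC5AC, 37.7% for MUC5B, 53.2% for MUC1 and 44.2% for MUC4, against 8.82% for MUC3A, 2.39% for MUC13 and 0% for SPDEF. Sequence in common with other genes was little for most members. It was 0.909% of 31-base stretches for MUC5AC, all of it with MUC5B, and 0% for MUC13, MUC16 and SPDEF. MUC20 was the exception, with 60.1% of its 31-base stretches found in other genes, and 45.5% in MUC20-OT1, a noncoding gene that overlaps it. MUC3A had 5.03% in common with the gene AC254629.1. MUC5B had 2.67% in common with its antisense gene MUC5B-AS1, which had no count in any library. Whether counting used strand is not given in the sources used here.

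Promoter sequence is shown for SPDEF and MUC3A, which were lower in all 3 IL17D-overexpressing libraries than in any control library, and for MUC13, whose groups overlapped. Each is the stretch of 250 bases before the start of a RefSeq transcript (GRCh38.p14), 5′ to 3′ on the gene's strand, with capitals where a searched motif matched. SPDEF is at chr6:34556330-34556579 (minus strand), MUC3A at chr7:100949284-100949533 (plus strand) and MUC13 at chr3:124934752-124935001 (minus strand).
SPDEF: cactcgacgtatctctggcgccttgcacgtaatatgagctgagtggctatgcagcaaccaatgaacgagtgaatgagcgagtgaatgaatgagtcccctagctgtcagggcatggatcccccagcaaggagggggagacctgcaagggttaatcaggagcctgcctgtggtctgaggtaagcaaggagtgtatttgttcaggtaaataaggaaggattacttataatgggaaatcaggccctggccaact
MUC3A: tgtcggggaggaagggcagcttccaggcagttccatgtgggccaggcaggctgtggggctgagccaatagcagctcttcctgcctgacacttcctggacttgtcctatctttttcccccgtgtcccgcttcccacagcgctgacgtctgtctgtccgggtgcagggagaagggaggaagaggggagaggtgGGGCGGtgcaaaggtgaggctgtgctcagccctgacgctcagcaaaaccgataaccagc
MUC13: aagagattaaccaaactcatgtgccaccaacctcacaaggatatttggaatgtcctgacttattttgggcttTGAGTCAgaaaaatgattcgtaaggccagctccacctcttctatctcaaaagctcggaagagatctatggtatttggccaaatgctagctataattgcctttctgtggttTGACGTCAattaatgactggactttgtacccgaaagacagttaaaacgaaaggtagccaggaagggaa
The motifs were searched on both strands as the forkhead core TGTTTAC, AP-1 TGANTCA, CRE TGACGTCA, ETS CCGGAAG, the GC box GGGCGG and the E-box CACGTG. Of 35116 RefSeq promoter stretches of this length, 2.98% held the forkhead letters, 6.57% AP-1, 1.65% CRE, 8.52% ETS, 42.6% the GC box and 6.35% the E-box. The MUC13 stretch held an AP-1 match 178 bases and a CRE match 68 bases before the start, which did not overlap each other. MUC3A held a GC box 59 bases before the start, and none of these letters were in the SPDEF stretch. Of the 10 genes, 7 had a RefSeq promoter entry, and MUC5AC, MUC5B and MUC20 had none.

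Among the gel-forming mucins, MUC5AC (ENSG00000215182, chromosome 11, 1157953 to 1201138) had the most counts. They numbered 2122, 2098 and 2248 in the control libraries and 1184, 1230 and 1127 in the IL17D-overexpressing libraries. On the CPM scale after TMM scaling these were 131, 145 and 139.8 against 72.0, 74.8 and 79.0. The groups were far apart: the highest IL17D-overexpressing library lay well below the lowest control library. The mean CPM of the IL17D-overexpressing libraries decreased by 45.7% from that of control. The log2 fold change was -0.88 (SE 0.049, edgeR), and 76 of the 15754 tested genes (0.482%) had a log2 fold change as low or lower. MUC5AC was chosen with this difference in view, so its place among all genes is only a description. Leaving out any 1 library gave log2 fold changes from -0.92 to -0.85. In these bulk libraries, fewer cells with a transcript and less of it per cell cannot be told apart.

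MUC5B (ENSG00000117983, chromosome 11, 1223066 to 1262172), the neighbour of MUC5AC, had 1028, 984 and 1080 counts in control and 848, 975 and 697 in IL17D-overexpressing cells. Its levels were 63.3, 68.0 and 67.2 CPM against 51.5, 59.3 and 48.8 CPM. All 3 IL17D-overexpressing libraries were below all 3 control libraries, but the gap was narrow, because the second IL17D-overexpressing library stood nearer to control than the other two. Its mean CPM decreased by 19.5% from control, and the log2 fold change was -0.31 (SE 0.062). Without 1 library at a time the log2 fold change ran from -0.40 to -0.25.

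MUC2 (ENSG00000198788, chromosome 11, 1074875 to 1110511) was close to the limit of detection, with 7, 9 and 14 counts in control and 5, 17 and 6 in IL17D-overexpressing cells. The groups overlapped, and its log2 fold change of -0.11 (SE 0.51) was smaller than its error. A difference in MUC2 was not detectable at this depth.

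The gel-forming mucins together had a summed level of 205 ± 9.96 CPM in control and of 129 ± 5.70 CPM with IL17D (SD, n = 3 each). MUC5AC was the more abundant of the pair in all 6 libraries. Its level per length (RPKM) was 2.20, 2.27 and 2.22 times that of MUC5B in the control libraries. In the IL17D-overexpressing libraries the same RPKM ratio was 1.49, 1.34 and 1.72, below every control library.

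Membrane mucins did not share one pattern. MUC13 (ENSG00000173702, chromosome 3, 124905442 to 124953819), a membrane mucin known from the gastrointestinal tract, had the highest level per length of the 10 genes in both groups. Its counts were 1098, 987 and 1130 in control and 1158, 1200 and 965 in IL17D-overexpressing cells. On the CPM scale the groups overlapped, at 67.6, 68.2 and 70.3 against 70.4, 73.0 and 67.6. The log2 fold change was 0.035 (SE 0.053), and it stayed between 0.0077 and 0.063 when any 1 library was left out.

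MUC3A (ENSG00000169894, chromosome 7, 100949555 to 100968346), an intestinal-type membrane mucin, had 255, 242 and 244 counts in control and 202, 217 and 162 in IL17D-overexpressing cells. Its levels were 15.7, 16.7 and 15.2 CPM against 12.3, 13.2 and 11.4 CPM. The groups did not overlap, and the log2 fold change was -0.37 (SE 0.11). MUC16 (ENSG00000181143, chromosome 19, 8848844 to 8981342), which carries the tumor antigen CA125, was the only one of the 10 genes with all IL17D-overexpressing libraries above control. Its counts were 36, 31 and 34 against 42, 50 and 45, which is 2.22, 2.14 and 2.11 CPM against 2.55, 3.04 and 3.15 CPM. The control libraries were closer together than counting error alone would give on average, with a coefficient of variation of 2.42% against 17.2% from counting. The log2 fold change was 0.43 (SE 0.25).

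MUC1 (ENSG00000185499, chromosome 1, 155185824 to 155192916), the membrane mucin of most glandular epithelia, had 49, 42 and 34 counts in control and 47, 51 and 33 in IL17D-overexpressing cells. The third library of each group was the lowest, the groups overlapped, and the log2 fold change was 0.050 (SE 0.24). MUC20 (ENSG00000176945, chromosome 3, 195720882 to 195741123) had 8, 15 and 12 counts against 16, 18 and 3, and its sequence in common with other genes leaves even these counts uncertain. MUC4 (ENSG00000145113, chromosome 3, 195746765 to 195812277), a membrane mucin of airway and other epithelia, had 9, 5 and 13 counts against 10, 9 and 7 and was too low to enter the test. A difference in either was not detectable at this depth.

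SPDEF (ENSG00000124664, chromosome 6, 34537802 to 34556333) had 104, 85 and 103 counts in control and 81, 71 and 43 in IL17D-overexpressing cells. On the CPM scale these were 6.40, 5.88 and 6.40 against 4.92, 4.32 and 3.01. All IL17D-overexpressing libraries were below control, and the third of them was the lowest. The log2 fold change was -0.60 (SE 0.18), and it was -0.43 at the smallest when 1 library was left out and -0.75 at the largest. The third library was also the lowest of its group for MUC5B and MUC3A, whereas for MUC5AC it was the highest of its group on the CPM scale.

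**Figure D1:**
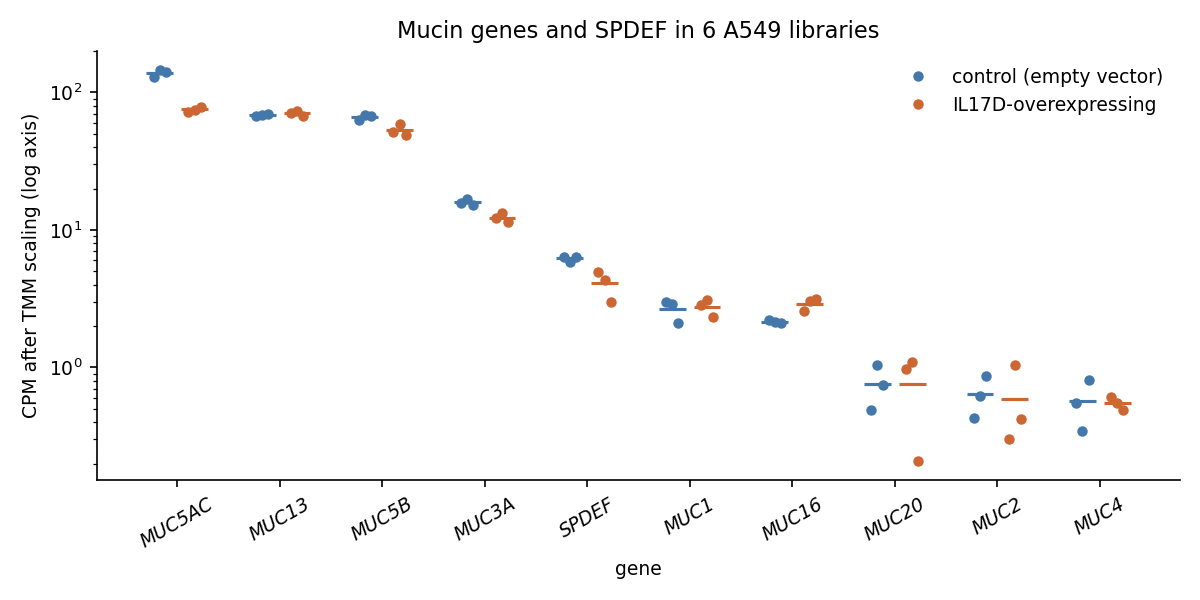
Level of each of the 10 genes in the 6 libraries, in CPM after TMM scaling on a log axis; each point is 1 library and each bar the mean of a group. The groups lie apart for MUC5AC (131 to 145 CPM in control, 72.0 to 79.0 CPM in IL17D-overexpressing cells), MUC5B, MUC3A, SPDEF and MUC16, and overlap for the other genes.

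Of the 10 genes, 9 passed the filter on low counts. Of these, 2 had an adjusted p under 0.05 in the edgeR test in the lower direction, MUC5AC and MUC5B, the genes the choice rested on, against 0.908% of all tested genes, and 0 in the higher direction, against 0.673% (1.58% in either direction). The groups did not overlap for 4 genes in the lower direction (8.31% of all tested genes) and 1 in the higher direction (7.48%), against 15.8% in either direction. Because the genes were chosen with this comparison known, nothing is read from these counts. Of the 9 log2 fold changes, 5 were below 0, with a median of -0.11, against 50.1% below 0 and a median of -0.00044 over all tested genes.

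**Figure D2:**
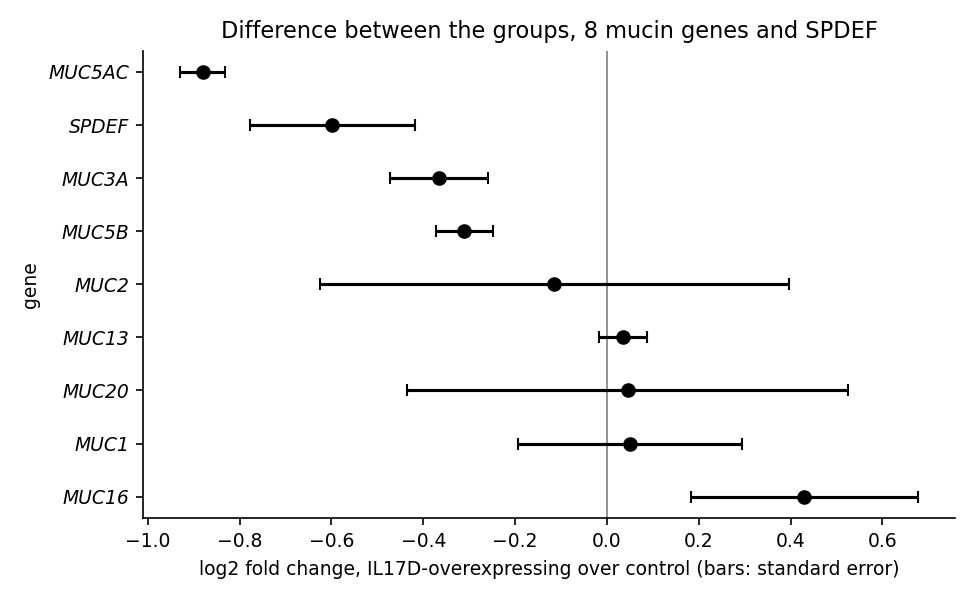
Log2 fold change of IL17D-overexpressing over control cells for the 9 genes with enough counts; points are edgeR estimates and bars are 1 SE on each side. MUC5AC is lowest at -0.88. MUC13 lies at 0.035 with a bar that is narrow but crosses 0, and the bars of MUC1, MUC2 and MUC20 also cross 0.

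The order of the genes by level per length was nearly the same in both groups. How reads that match several places were counted is not given in the sources used here. Levels per length of genes with much repeated coding sequence, such as MUC1, MUC4, MUC5B and MUC5AC, are therefore less certain. In control cells the mean levels in RPKM were 19.6 for MUC13, 7.94 for MUC5AC, 3.56 for MUC5B, 3.25 for SPDEF, 1.39 for MUC3A, 0.568 for MUC1, 0.178 for MUC20, 0.0506 for MUC2, 0.0492 for MUC16 and 0.0267 for MUC4. Only MUC2 and MUC16 overlapped as neighbours in this order, while MUC5B and SPDEF were close but apart, with a lowest MUC5B level of 3.40 RPKM and a highest SPDEF level of 3.35 RPKM. In IL17D-overexpressing cells the order in RPKM was 20.1 for MUC13, 4.31 for MUC5AC, 2.86 for MUC5B, 2.13 for SPDEF, 1.08 for MUC3A, 0.585 for MUC1, 0.179 for MUC20, 0.0665 for MUC16, 0.0463 for MUC2 and 0.0257 for MUC4. Here MUC20 overlapped with MUC16, MUC16 with MUC2, and MUC2 with MUC4. MUC16 had a longer transcript than the others, so that it ranked low per length with as many as 50 counts in a library.

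Together the 9 mucins took 0.0296% of all counts in control and 0.0218% in IL17D-overexpressing cells. MUC5AC held 46.0%, 47.5% and 46.7% of the mucin counts in the control libraries and 33.7%, 32.7% and 37.0% in the IL17D-overexpressing libraries. MUC13 held 23.8%, 22.4% and 23.5% in control and 33.0%, 31.9% and 31.7% in IL17D-overexpressing cells, while its own CPM overlapped between the groups. The MUC5B share was 22.3 ± 0.0949% (SD, n = 3) and 24.3 ± 1.50% (SD, n = 3). The membrane mucins had a summed level of 90.7 ± 1.02 CPM in control and of 89.6 ± 4.41 CPM with IL17D (SD, n = 3 each), a difference smaller than the spread between libraries. The ratio of gel-forming to membrane mucins, on summed CPM, was 2.17, 2.34 and 2.28 in control and 1.38, 1.44 and 1.51 in IL17D-overexpressing cells. On summed RPKM the same ratio was 0.507, 0.549 and 0.528 in control and 0.313, 0.328 and 0.343 in IL17D-overexpressing cells. Per length the membrane mucins were thus the higher in every library, and on both scales the ratio was lower with IL17D. Most of the membrane sum per length was MUC13, at a mean of 19.6 RPKM in control and 20.1 RPKM with IL17D. MUC3A came next at 1.39 and 1.08 RPKM.

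**Figure D3:**
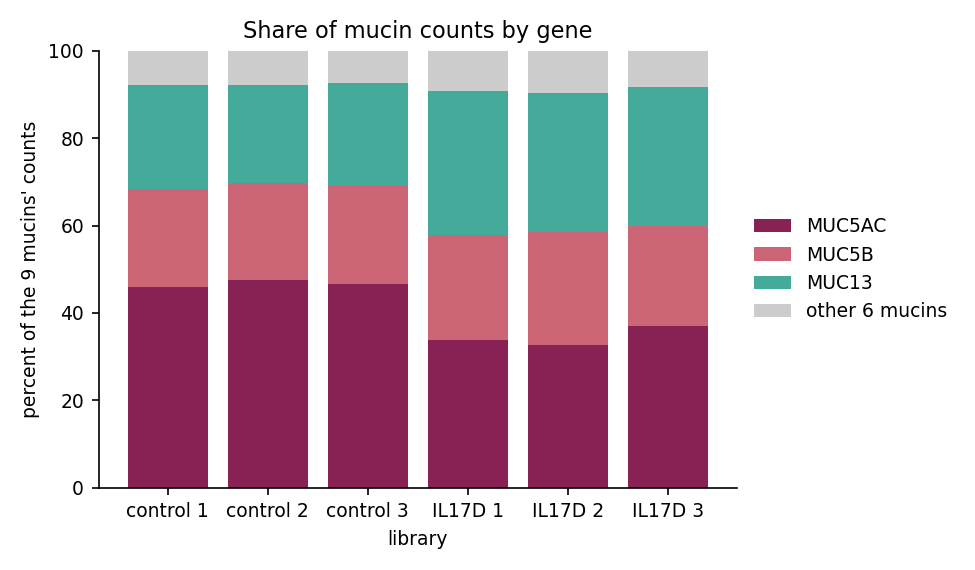
Percent of the counts on the 9 mucins that fell on MUC5AC, MUC5B, MUC13 and the other 6 mucins, stacked for each of the 6 libraries. The MUC5AC share is 46.0% to 47.5% in control and 32.7% to 37.0% in IL17D-overexpressing cells, and the MUC13 share is larger in each IL17D-overexpressing library than in any control library.

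The genes around the mucins were examined next, to see whether the differences extended to the chromosomal surroundings. MUC2, MUC5AC and MUC5B lie in 1 cluster on chromosome 11, and of the 13 tested genes within 250 kb of it, 0 had an adjusted p under 0.05 in the edgeR test, 0 had an unadjusted p under 0.05, and 0 were called by DESeq2 or limma voom. Their log2 fold changes ran from -0.077 to 0.23 with a median of 0.0093. On one side, MUC6, a gastric gel-forming mucin 38.2 kb from MUC2, was at 1.15 CPM in control and 1.21 CPM in IL17D-overexpressing cells. On the other side, TOLLIP, an adaptor of innate immune signaling 12.2 kb from MUC5B, was at 57.1 ± 2.40 CPM (SD, n = 3) and 54.4 ± 1.70 CPM (SD, n = 3), with a log2 fold change of -0.070 (SE 0.058, adjusted p = 0.719, edgeR).

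**Figure D4:**
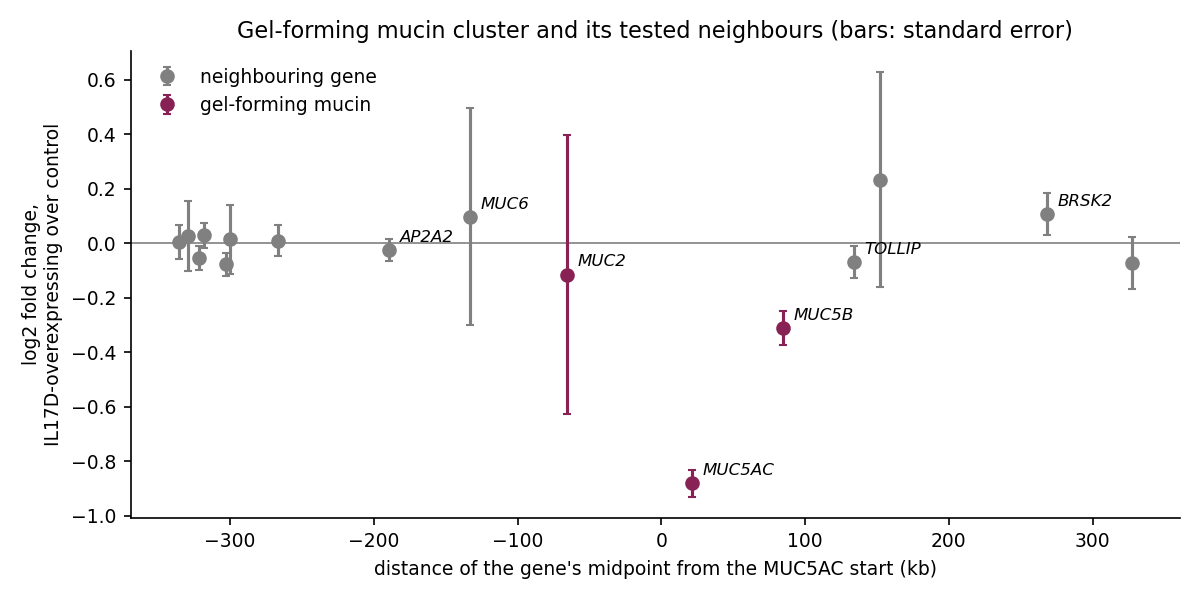
Log2 fold change of the gel-forming mucins and of tested genes within 250 kb of them, against the distance of each gene's midpoint from the MUC5AC start in kb; points are edgeR estimates and bars are 1 SE on each side. MUC5AC at -0.88 and MUC5B at -0.31 lie below all neighbours, whose estimates run from -0.077 to 0.23.

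Next to MUC3A lies MUC12, another membrane mucin, 1.28 kb away. MUC12 had 143, 128 and 146 counts in control and 92, 110 and 102 in IL17D-overexpressing cells, or 8.80, 8.85 and 9.08 CPM against 5.59, 6.69 and 7.15 CPM. Its groups did not overlap, but the log2 fold change of -0.46 (SE 0.14) did not pass (adjusted p = 0.106, edgeR). ACHE, on the other side of MUC3A, was at 9.95 and 9.71 CPM. The genes on either side of MUC13, ITGB5 and HEG1, had log2 fold changes of -0.053 (SE 0.030) and 0.0043 (SE 0.090). MUC20-OT1 and TNK2, around MUC20 and MUC4, were at 0.072 (SE 0.081) and 0.044 (SE 0.065) on the same scale. ZNF558 and ZNF317, around MUC16, were at 0.10 and -0.055, and RPS10 and C6orf106, around SPDEF, at -0.32 (SE 0.33) and -0.088 (SE 0.051). Adjusted p-values of the 9 neighbours named since MUC12 ranged from 0.538 to 0.995 in the edgeR test.

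Of all 88 tested neighbours, the edgeR test called 1 lower and 1 higher, against 0.908% and 0.673% of tested genes, and both lie near MUC1. ADAM15, a membrane metalloproteinase 123 kb away, fell from 129.9 ± 1.05 to 110.1 ± 1.87 CPM (SD, n = 3 each), a log2 fold change of -0.24 (SE 0.043, adjusted p = 0.000815, edgeR). EFNA1, an ephrin ligand 51.0 kb away, rose from 34.0 ± 1.01 to 40.9 ± 1.27 CPM (SD, n = 3; log2 fold change 0.27, SE 0.068, adjusted p = 0.0329, edgeR). The EFNA1 call was lost in 6 of 13 alternatives, with an adjusted p of up to 0.189 without the third IL17D-overexpressing library, and DESeq2 did not call the gene. Over the 88 neighbours DESeq2 called 1 lower and 1 higher, and limma voom 1 lower and 2 higher. The nearest tested genes on either side of MUC1, TRIM46 and the antisense gene AC234582.1, had log2 fold changes of -0.27 (SE 0.19, adjusted p = 0.666, edgeR) and 0.43 (SE 0.34, adjusted p = 0.702, edgeR). The 16 to 26 counts per library on AC234582.1 did not overlap between the groups, but the gene overlaps THBS3, and without a known strand setting their reads cannot be told apart.

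Genes linked to mucins were taken as 6 lists: other mucins, O-glycosylation, mucus-secreting cells, granule exocytosis, regulators of mucin transcription and signals that induce mucins. Of the listed genes, 107 different ones could be tested. Of these, 7 fell at an adjusted p under 0.05 in the edgeR test (6.54%, against 0.908% of all tested genes) and 0 rose. DESeq2 and limma voom each called 6 lower and 0 higher. At an unadjusted p under 0.05 in the edgeR test 21 were lower and 8 higher. Over all 15754 tested genes, 943 were lower and 880 higher at that threshold. The median log2 fold change of the 107 genes was -0.031, and 63 of them were below 0 (58.9%, against 50.1% of all tested genes). The genes that fell were FCGBP, AGR2, GALNT10, ELF3, FOXA2, STAT6 and CPLX2. Because the lists were chosen with earlier results of these data known, nothing is read from the share of them called.

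Of the genes of mucus-secreting cells, 9 of 26 were tested and 8 had a log2 fold change below 0, with a median of -0.068. FCGBP, a mucus protein that binds to gel-forming mucins, had 480, 521 and 493 counts in control and 386, 370 and 254 in IL17D-overexpressing cells. It fell from 32.1 ± 3.46 to 21.3 ± 3.03 CPM (SD, n = 3 each), a log2 fold change of -0.59 (SE 0.093, adjusted p = 0.000137, edgeR). AGR2, a disulfide isomerase of the endoplasmic reticulum needed for mucin folding, had 2565, 2244 and 2680 counts in control and 2214, 2262 and 1991 in IL17D-overexpressing cells. It fell from 159.9 ± 6.01 to 137 ± 2.49 CPM (SD, n = 3; log2 fold change -0.22, SE 0.042, adjusted p = 0.00156, edgeR). TFF1, a trefoil peptide of mucus, had 25, 24 and 27 counts against 15, 11 and 10. Its groups did not overlap, but the log2 fold change of -1.08 (SE 0.37) did not pass (adjusted p = 0.165, edgeR). PDIA3, another disulfide isomerase of the endoplasmic reticulum, had means of 235 and 228 CPM (adjusted p = 0.761, edgeR). The goblet cell genes TFF2, TFF3, CLCA1 and BPIFA1 had no count in any library.

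Among the enzymes of mucin O-glycosylation, 23 were tested and 1 fell, and their median log2 fold change was -0.041. This was GALNT10, one of the transferases that add the first sugar to serine and threonine, with 4012, 3670 and 3862 counts in control and 3394, 3486 and 3075 in IL17D-overexpressing cells. It fell from 247 ± 6.79 to 211 ± 4.63 CPM (SD, n = 3 each), a log2 fold change of -0.22 (SE 0.037, adjusted p = 0.000235, edgeR). GALNT2, the transferase with the highest level per length of this list, was at 296 CPM in both groups (log2 fold change 0.00082, SE 0.035). GCNT3, which branches the core sugar chain of mucins, had a log2 fold change of -0.16 (SE 0.046) and did not pass (adjusted p = 0.0586, edgeR).

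Of 35 tested regulators of mucin transcription, 3 fell and 0 rose in the edgeR test, and the median log2 fold change was 0.0012. At an unadjusted p under 0.05 in that test 6 were lower and 2 higher. ELF3, an epithelial ETS factor, had 2265, 2109 and 2147 counts in control and 1903, 1913 and 1597 in IL17D-overexpressing cells. It fell from 139.6 ± 6.15 to 115 ± 2.39 CPM (SD, n = 3 each), a log2 fold change of -0.28 (SE 0.044, adjusted p = 9.1e-05, edgeR). FOXA2, a forkhead factor known to restrain goblet cell formation in the airway, fell from 42.4 ± 2.56 to 34.3 ± 2.36 CPM (SD, n = 3; log2 fold change -0.30, SE 0.071, adjusted p = 0.0155, edgeR). STAT6, the transcription factor that carries IL-13 signals to goblet cell genes, fell from 95.9 ± 5.32 to 84.3 ± 3.48 CPM (SD, n = 3; log2 fold change -0.19, SE 0.051, adjusted p = 0.0495, edgeR). HIF1A and NOTCH3, the regulators with the highest levels per length, had log2 fold changes of -0.091 (SE 0.046, adjusted p = 0.449, edgeR) and 0.051 (SE 0.036, adjusted p = 0.651, edgeR). The ELF3, FCGBP, AGR2 and GALNT10 calls held in all 13 alternatives. The STAT6 call was lost in 8 of them, with an adjusted p of up to 0.254 without the first IL17D-overexpressing library. FOXA2 lost its call without control replicate 1 and without IL17D-overexpressing replicate 1 or 3, with an adjusted p of up to 0.165.

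The machinery of granule exocytosis gave 1 call among 18 tested genes, whose median log2 fold change was -0.034. CPLX2, a complexin that acts on vesicle fusion, fell from 1101 ± 19.6 to 1019 ± 13.3 CPM (SD, n = 3; log2 fold change -0.11, SE 0.028, adjusted p = 0.0267, edgeR). The call was lost without control replicate 2 and without any 1 of the IL17D-overexpressing libraries, with an adjusted p of up to 0.160. DNAJC5, a vesicle chaperone, was at 155 and 164 CPM (adjusted p = 0.438, edgeR).

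Of 20 tested ligands, receptors and kinases known to induce mucins, 0 passed in the edgeR test and 0 in DESeq2 or limma voom. At an unadjusted p under 0.05 in the edgeR test 3 were higher and 3 lower. TNFRSF1A, the main receptor of TNF, had a log2 fold change of -0.11 (SE 0.032, adjusted p = 0.0728, edgeR), and the EGFR ligand AREG one of -0.055 (SE 0.040, adjusted p = 0.673, edgeR). Of 12 further mucin genes in the table, 3 were tested, MUC12, MUC6 and OVGP1, and 0 were called by edgeR, DESeq2 or limma voom. MUC12 was the only one with an unadjusted p under 0.05 in the edgeR test. OVGP1 was at 1.50 and 2.03 CPM (adjusted p = 0.677, edgeR), and MUC7, MUC15 and MUC21 had no count in any library.

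**Figure D5:**
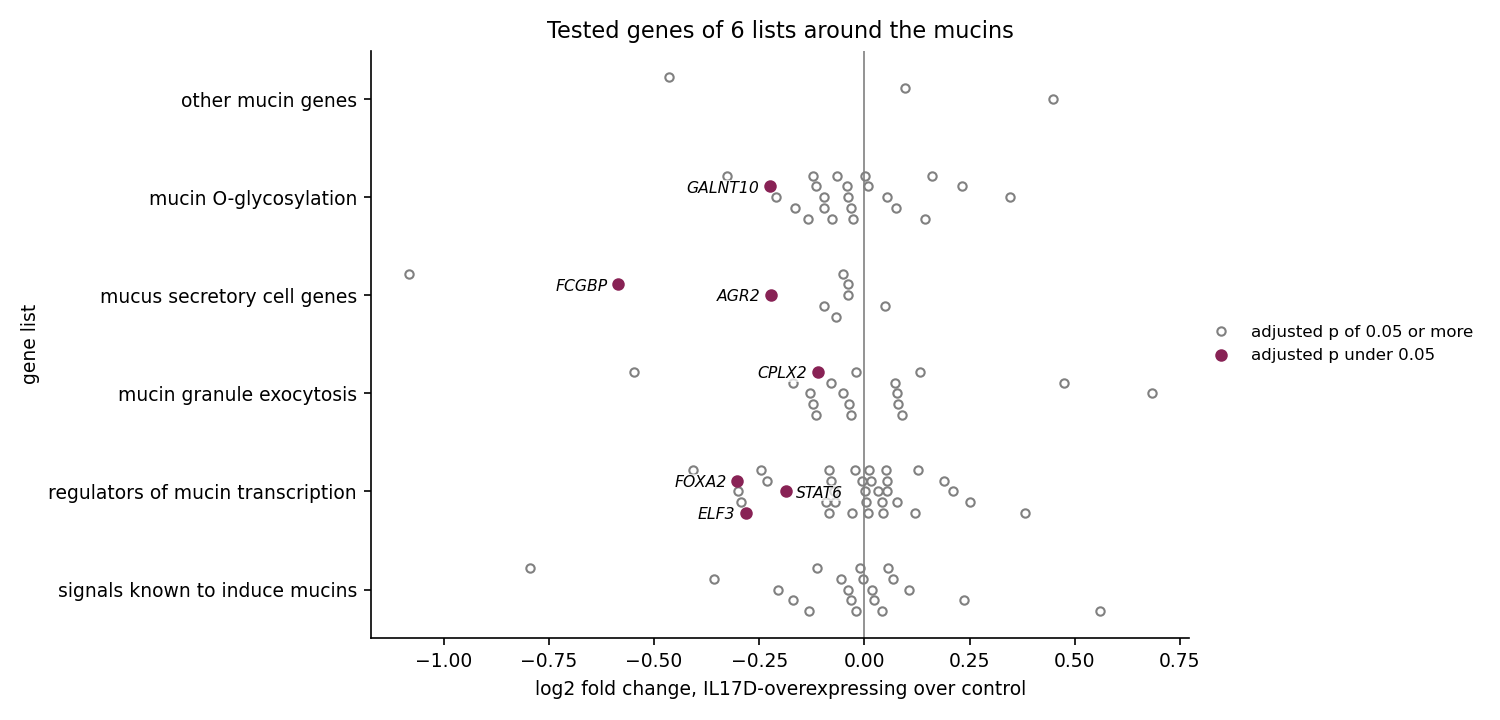
Log2 fold change of the tested genes in 6 lists around the mucins, from the edgeR fit; each point is 1 gene, and filled points have an adjusted p under 0.05. All 7 filled points lie below 0, from -0.59 for FCGBP to -0.11 for CPLX2, and the other genes lie on both sides of 0.

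In the RefSeq promoter stretches of these 7 genes, a GC box was found in GALNT10 and STAT6, and none of the searched letters in FCGBP, AGR2, ELF3 and CPLX2. FOXA2 had no entry.

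Markers of cell types were compared beside these lists. Among 4 tested epithelial markers CDH1, the adhesion molecule E-cadherin, fell from 43.4 to 35.7 CPM (log2 fold change -0.28, SE 0.072, adjusted p = 0.0306, edgeR), and the other 3 did not pass. DESeq2 called 0 of the 4 and limma voom called 2. The summed level of the 5 epithelial markers was 11119 to 11539 CPM in control and 10802 to 11040 CPM in IL17D-overexpressing cells. Nearly all of it was KRT8 and KRT18, so the sum says little about the other epithelial markers. The 8 alveolar type II markers summed to 82.0 to 89.5 CPM and 86.0 to 87.9 CPM, most of it ABCA3. The other tested marker of these cells, NAPSA, had 37, 22 and 14 counts in control and 11, 14 and 15 with IL17D. Its groups overlapped, and its log2 fold change of -0.87 (SE 0.39) did not pass (adjusted p = 0.375, unadjusted p = 0.0334, edgeR). The 5 leukocyte markers summed to 0.746 to 1.11 CPM and 0.730 to 1.22 CPM, the 5 fibroblast markers to 22.6 to 25.0 CPM and 19.6 to 24.4 CPM, and the 4 endothelial markers to 0.346 to 0.435 CPM and 0.0701 to 0.608 CPM. The part of the lower epithelial sum in the mucin differences was not tested.

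Likeness to MUC5AC was measured as Pearson's r of log2 CPM over the 6 libraries, among 11168 genes with a mean of at least 5 CPM. Among the highest values were 0.993 for MGST2, 0.988 for GTF2H3, 0.987 for MYRF and 0.985 for MYEF2, and the 3 lowest were -0.999 for ADM, -0.996 for NFKB2 and -0.995 for MYC. The libraries form 2 groups of 3, so any gene whose groups lie apart scores high, and these values are a description. MGST2 was at 20.6 ± 0.350 CPM in control and 15.3 ± 0.190 CPM with IL17D (SD, n = 3 each). Among the other members with that level, r was 0.913 for MUC3A, 0.867 for MUC5B, 0.766 for SPDEF and -0.445 for MUC13.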

How the data were processed

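RNA-seq of 3 control and 3 IL17D-overexpressing A549 libraries was analysed. The authors deposited raw read counts per gene, without normalization, with gene lengths. The submitters' processing notes name Bowtie2 and hg38; the counter and its settings are not given in the sources used here, and methods and labels name different Illumina sequencers. All 58735 genes have the start and end of GENCODE release 29. Genes were kept by filterByExpr, scaled by TMM and compared with edgeR's quasi-likelihood test without covariates; p-values are two-sided, with Benjamini-Hochberg adjustment over 15754 genes, and a call is an adjusted p under 0.05. CPM are TMM-scaled, and RPKM are CPM per kb of the deposited gene length. Tools were R 4.3.3, edgeR 4.0.16, limma 3.58.1, DESeq2 1.42.0, Python 3.11.15, numpy 2.4.6, pandas 2.3.3 and matplotlib 3.10.9, with steps tested on simulated data. Repeats and 31-base stretches came from GENCODE transcripts, promoters from RefSeq. The limit of 3 counts covers counting error only.

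Groups came from the labels. Members, lists and tests were chosen with earlier results of these data known. Named were all members, called genes of each list (at most 6) and its 2 genes highest in RPKM, the nearest tested neighbours on each side and called neighbours, and the 5 and 3 genes most like and unlike MUC5AC. Of these and the neighbours, 2 genes are not reported here, nor is 1 sequence. MUC12, GCNT3, TFF1, CDH1, NAPSA and genes without counts were named after their values were seen. The alternatives were DESeq2's size factors, total counts, DESeq2's Wald test, limma voom, genes with at least 1 count, a minimum of 10 counts in each library, a replicate block and each library left out.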

Additional observations from a re-analysis of the deposited data

How the results depend on the processing

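All 13 alternatives kept MUC5AC, MUC5B, SPDEF and MUC3A lower and MUC16 higher in IL17D-overexpressing cells. The log2 fold change of MUC13 also stayed above 0, but at 0.035 (SE 0.053) it was smaller than its error, and its groups overlapped. The signs of MUC1, MUC2 and MUC20 changed when single libraries were left out. That of MUC20 also changed with limma voom (-0.15) and the replicate block (-0.032). The log2 fold change of MUC2 ran from -0.82 without the second IL17D-overexpressing library to 0.21 without the first. Leaving out 1 library at a time gave 69 to 129 genes called higher and 76 to 138 lower, against 106 and 143 with all 6. It gave 4 to 9 listed genes called lower, with 4 without IL17D-overexpressing replicate 1 and 4 without replicate 3, 0 higher, and 1 to 2 called neighbours. The other alternatives gave 82 to 121 genes called higher, 105 to 174 lower, 6 to 8 listed genes lower and 2 to 3 neighbours. With the replicate number as a block the counts were 115 higher, 157 lower, 8 listed genes lower and 2 neighbours, and MUC5AC stayed at -0.88. Deviations of same-numbered libraries correlated at 0.0100, -0.0119 and -0.0151, so no deviation shared by number was seen. These values cannot show whether same-numbered libraries were prepared together, which the labels do not say. DESeq2's size factors and total counts shifted the median log2 fold change of all genes by 0.0015 and -0.0030. MUC2 and MUC20 could not be fitted with at least 10 counts in every library, and DESeq2 gave no adjusted p for OVGP1. Depth limits MUC2, MUC4 and MUC20, with 3 to 18 counts per library.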
